A study of Mus musculus with 34 samples.

Results

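Cadherins and protocadherins are adhesion receptors that hold neighbouring cells together through calcium-binding extracellular repeats. This account describes the 75 genes of the family that were read in cultured mouse ependymal cells lacking Rfx1, Rfx2 or Rfx3. Members were taken by symbol from a table of 21647 genes: Cdh and Cdhr genes with a number (Cdhr4 was not taken), Pcdh genes, Fat1 to Fat4, Dchs1 and Dchs2. The table held 85 such genes, of which 75 had at least 10 counts in 4 or more of 34 libraries. The 10 left out by that count rule were Cdh3, Cdh7, Cdh9, Cdh12, Cdh16, Cdhr2, Cdhr5, Pcdh12, Pcdha1 and Pcdha2. Dchs2 was not analysed here. RNA came from ependymal cells grown from the lateral ventricular walls of C57BL/6 embryos at E18.5, taken to confluency and then kept without serum for 4 days. Each of 3 lines had a knockout group (Rfx1-/-, Rfx2-/- or Rfx3-/-, with 4, 6 and 6 libraries) and a wild-type group of +/+ embryos (4, 8 and 6 libraries). All groups shared strain, age and culture. The sample titles also carry the term OF1, which no label explains. No source says whether libraries came from separate embryos or cultures, so p-values measure only the spread between libraries.

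Ependymal cells line the brain ventricles and move cerebrospinal fluid with motile cilia, and RFX transcription factors are known to bind X-box motifs at genes of cilia. Classical cadherins such as Cdh2 (N-cadherin) join cells at adherens junctions and are tied to actin by catenins. The giant cadherins Fat4 and Dchs1 bind each other across cell borders and act in planar polarity, and Cdh23 and Pcdh15 form the tip links of hair-cell stereocilia. Protocadherins of the alpha, beta and gamma clusters are made from neighbouring promoters on 1 chromosome and are known for self-recognition of neurons. Delta protocadherins are single genes with roles in cell sorting and axon growth.

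Counts per library ran from 18.2 to 53.4 M, and the 75 members took between 0.186% and 0.534% of them. The targeted mRNA was lower in each line without overlap: Rfx1 at 19.5 to 29.9 CPM (counts scaled to library size) in knockouts against 52.0 to 76.9, Rfx2 at 43.2 to 55.1 against 82.8 to 129, and Rfx3 at 24.9 to 51.7 against 158 to 208. The edgeR adjusted p was 0.0687, 1.34e-05 and 4.16e-05. The ependymal marker Foxj1 was present in every library, at 638 to 1992 CPM. Rfx3 knockout 3 stood apart. Across 10778 genes, its log2 CPM relative to the wild-type mean fell with exon length (Spearman's rho -0.64, against -0.30 to 0.20 in the other 11 libraries; genes are not independent replicates). Members are long, with a median exon length of 5335 bases against 4483 for the genes tested in that line. This library gave the lowest member share, and several Rfx3 results are therefore also given without it. The sexes were not balanced between groups. Libraries with Y-linked expression numbered 1 among Rfx1 knockouts and 4 among Rfx1 wild types, 3 and 4 for Rfx2, and 4 and 2 for Rfx3.

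In wild-type cultures a few members made up most of the family's mRNA. Compared per kilobase of exon (RPKM), Fat1, Cdh2, Pcdhgc3 and Pcdh10 were the 4 most abundant members in all 3 lines. Fat1, a giant cadherin of epithelial cell borders, stood at 77.6 ± 13.2 RPKM (SD, n = 4) in Rfx1 wild types, 138 ± 14.3 (n = 8) in Rfx2 wild types and 95.4 ± 10.3 (n = 6) in Rfx3 wild types. Cdh2 stood at 80.7 ± 5.59, 72.6 ± 6.96 and 72.6 ± 5.96 RPKM. In the Rfx1 line Fat1 and Cdh2 did not differ beyond their spread, while in the Rfx2 line the lowest Fat1 value (115 RPKM) lay above the highest of Cdh2 (86.5). Pcdhgc3 followed at 40.5 to 54.3 RPKM and Pcdh10 at 22.6 to 24.2 RPKM, as means of the 3 lines. Cdh26 (11.3 to 13.8 RPKM) and Cdh4 (10.7 to 15.4 RPKM) came next, and their ranges overlapped in the Rfx2 and Rfx3 lines. Epithelial E-cadherin (Cdh1) was at 0.0334 to 0.0585 RPKM, endothelial Cdh5 at 0.0140 to 0.0425 and Fat2, the lowest member in all 3 lines, at 0.00882 to 0.0186. Cdhr3 ranked between 17 and 18 in the family at 2.47 to 3.28 RPKM.

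**Figure D1:**
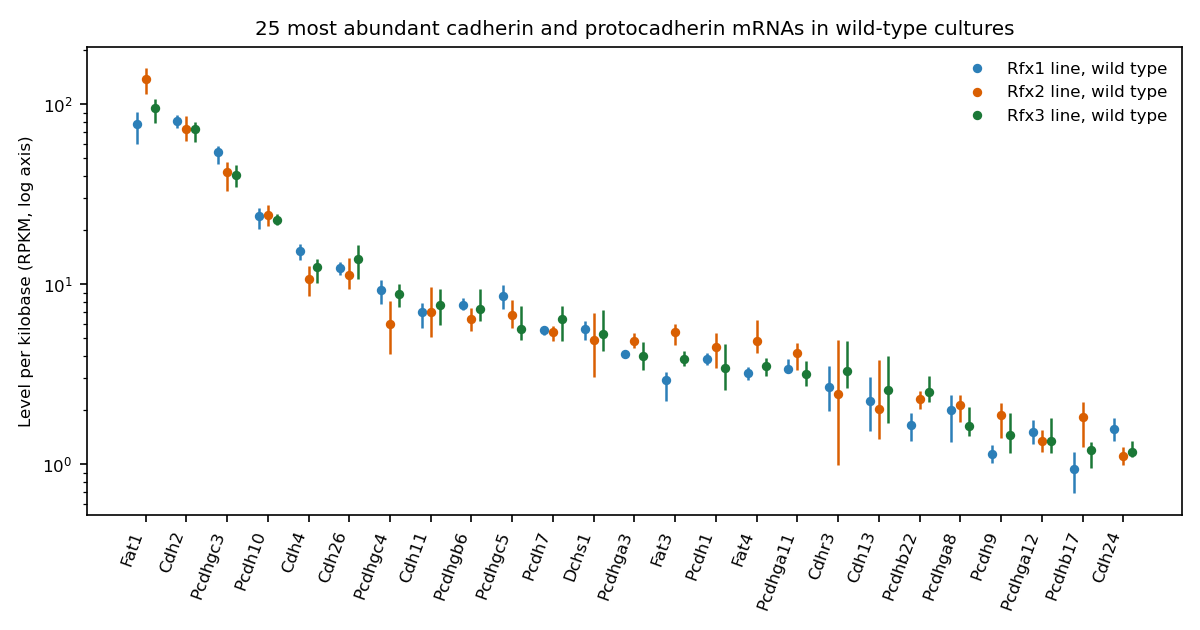
Wild-type levels of the 25 most abundant members, in RPKM on a log axis; points are line means and bars span the lowest to the highest library. Fat1, Cdh2, Pcdhgc3 and Pcdh10 lead in every line, and the Cdhr3 bar is widest in the Rfx2 line.

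More members rose than fell in Rfx2 and Rfx3 knockouts, and none passed the test in Rfx1 knockouts. Members were called when the edgeR adjusted p, over all genes tested in the line, was below 0.05. In Rfx2 knockouts 22 of 70 tested members rose (31.4%), against 13.9% of all genes tested, and 9 fell (12.9%), against 18.4%. In Rfx3 knockouts 17 of 69 rose (24.6%), against 10.6% of all genes, and 4 fell (5.80%), against 12.9%. Of these 17, 11 were among the 21 tested genes of the beta cluster, which lie together on chromosome 18 and share sequence. The Rfx3 share of rises therefore rests largely on that cluster. In the Rfx2 line 5 of the 22 were beta-cluster genes. In Rfx1 knockouts 0 of 62 rose, against 0% of all genes, and 0 fell, against 0.00723%. The median log2 difference of tested members was 0.08, 0.29 and 0.40 in the Rfx1, Rfx2 and Rfx3 lines, and that of all genes tested was 0.00, 0.01 and 0.02. Members under the count filter of a line were not tested: 13 in the Rfx1 line (Pcdha4, Pcdhac1, 1 of the 2 identifiers named Pcdha11, Pcdhb1, Pcdhb11, Pcdhb12, Fat2, Pcdh15, Pcdh20, Cdh1, Cdh5, Cdh15 and Cdh18), 5 in the Rfx2 line (Pcdha4, Pcdhac1, Pcdhb1, Cdh15 and Cdh5) and 6 in the Rfx3 line (Pcdha4, Pcdhac1, Pcdhb1, Fat2, Cdh1 and Cdh5). Without Rfx3 knockout 3, 35 of 70 members rose and 6 fell in the Rfx3 line, where 18.7% and 19.7% of all genes were called. Without Rfx3 wild type 3, 11 of 69 rose and 4 fell, where 5.93% and 8.99% of all genes were called.

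Cdhr3, Cdh23, Cdh26 and Dchs1 fell in both the Rfx2 and Rfx3 lines. They were 4 of the 9 members that fell in Rfx2 knockouts (44.4%) and 4 of the 4 in Rfx3 knockouts (100%). Among 68 members tested in both lines this was 5.88%, and 8.63% of all genes tested in both fell in both. These members moved beside the ependymal markers Foxj1, Ak7, Mlf1, Tmem212, Dynlrb2 and Ccdc153. Of these markers 6 of 6 fell in Rfx2 knockouts, against 18.4% of all genes tested, and 4 of 6 in Rfx3 knockouts, against 12.9%. The 6 markers summed to 766 to 989 CPM in Rfx2 knockouts and 1032 to 2157 in their wild types, and to 759 to 1906 in Rfx3 knockouts and 2036 to 2441 in their wild types, with none at 0. In bulk RNA, fewer cells of a type and less RNA per cell cannot be told apart.

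Cdhr3, a cadherin-related gene known from ciliated epithelium, fell most. It lies on chromosome 12 at 33033796 to 33092875 (GRCm38, minus strand). Rfx3 knockouts had a lowest, median and highest value of 0.236, 1.55 and 2.62 CPM, and their wild types 12.1, 13.1 and 22.1. All 6 knockouts lay below all 6 wild types. The log2 difference was -3.26 (SE 0.40), with an edgeR adjusted p of 0.000614. Rfx2 knockouts had 2.79, 5.08 and 6.38 CPM against 4.55, 9.95 and 22.5 in wild types, and the groups overlapped. There the log2 difference was -1.27 (SE 0.32), with an edgeR adjusted p of 0.00762. Mcidas, a regulator of multiciliation that was looked at after its values were seen, was at 65.7 to 93.7 CPM in Rfx3 knockouts 1 to 3, where Cdhr3 was at 2.05 to 2.62 CPM, and at 13.3 to 22.5 CPM in knockouts 4 to 6, where Cdhr3 was at 0.236 to 1.06 CPM. Wild types had 68.9 to 112 CPM of Mcidas. The 6 ependymal markers summed to 1792 to 1906 CPM in knockouts 1 to 3 and to 759 to 888 CPM in knockouts 4 to 6, all below every wild type, as Cdhr3 was. Their part in the Cdhr3 difference was not tested.

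Promoters were looked at for the members that fell in both lines. RefSeq's promoter table (GRCm38.p6) matched 25 of the 75 members, with 26 windows that reach from 250 bases before the start to 50 after it. The letters GTTGCC, an arm of the X-box, were searched on both strands. They occurred in 1 of 26 member windows (3.85%) and in 12.5% of 32851 windows of all genes. A full X-box occurred in 0 of 26 and in 1.53% of all. The 1 member was Cdhr3, where the match ends 1 base before the annotated start. The 250 bases before the start of the 3 matched genes that fell in both lines are shown 5′ to 3′ on the gene's strand, with the match in capitals (GGCAAC is GTTGCC on the other strand). Cdh23 and Cdh26 hold no match in these windows. The windows are chr12:33092876-33093125 (minus strand) for Cdhr3, chr10:60696491-60696740 (minus strand) for Cdh23 and chr2:178430265-178430514 (plus strand) for Cdh26.
Cdhr3: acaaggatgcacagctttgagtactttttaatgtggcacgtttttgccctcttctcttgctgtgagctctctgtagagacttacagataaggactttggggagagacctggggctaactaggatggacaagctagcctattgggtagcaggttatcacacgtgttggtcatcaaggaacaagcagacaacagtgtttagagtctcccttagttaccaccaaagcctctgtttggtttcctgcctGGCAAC
Cdh23: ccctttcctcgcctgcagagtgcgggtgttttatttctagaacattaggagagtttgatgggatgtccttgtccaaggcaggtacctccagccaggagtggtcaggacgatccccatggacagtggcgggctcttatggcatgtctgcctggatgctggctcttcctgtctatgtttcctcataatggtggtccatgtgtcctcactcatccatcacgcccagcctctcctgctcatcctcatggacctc
Cdh26: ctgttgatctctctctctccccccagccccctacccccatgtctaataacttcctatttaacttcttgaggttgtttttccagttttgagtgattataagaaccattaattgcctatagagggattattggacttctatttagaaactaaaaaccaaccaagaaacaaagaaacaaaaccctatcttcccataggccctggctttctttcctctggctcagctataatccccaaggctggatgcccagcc

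Cdh23, the tip-link cadherin, fell in both lines with the groups apart. It lies on chromosome 10 at 60302748 to 60696490. Values were 1.55, 1.78 and 2.09 CPM (lowest, median, highest) in Rfx2 knockouts and 2.53, 3.28 and 3.72 in wild types. In the Rfx3 line they were 0.629, 0.911 and 1.98 in knockouts and 2.62, 3.22 and 3.75 in wild types. No knockout reached a wild type in either line. The log2 difference was -0.86 (SE 0.11, edgeR adjusted p = 9.83e-05) in the Rfx2 line and -1.50 (SE 0.27, edgeR adjusted p = 0.00380) in the Rfx3 line.

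Cdh26, a cadherin of epithelia on chromosome 2, was the most abundant of the 4 per kilobase of exon, although Dchs1 had the higher CPM. Rfx2 knockouts had 21.2, 23.9 and 29.2 CPM against 28.2, 32.5 and 42.2 in wild types, with overlap (log2 difference -0.47, SE 0.11, edgeR adjusted p = 0.00482). Rfx3 knockouts had 21.9, 27.3 and 39.7 CPM against 32.2, 42.7 and 49.8 (log2 difference -0.54, SE 0.14, edgeR adjusted p = 0.0179). The knockout at 39.7 CPM was Rfx3 knockout 3, the library that stood apart, and without it the difference was -0.66 (edgeR adjusted p = 0.00267). Dchs1, the partner of Fat4 on chromosome 7, had 27.7, 34.4 and 43.6 CPM in Rfx2 knockouts against 33.9, 48.7 and 76.2 in wild types, with overlap. In the Rfx3 line it had 18.01, 28.7 and 42.8 CPM against 46.8, 56.1 and 79.2, with no overlap. The log2 difference was -0.63 (SE 0.18, edgeR adjusted p = 0.0132) and -1.03 (SE 0.20, edgeR adjusted p = 0.00556). Without Rfx3 knockout 3, which held the lowest Dchs1 value, the second became -0.93. Without the libraries with Pdgfra, a marker of oligodendrocyte precursors, above 50 CPM (Rfx2 knockouts 1 to 3 and wild types 1 and 2), an alternative chosen after seeing the data, neither Cdh26 nor Dchs1 passed in the Rfx2 line (edgeR adjusted p = 0.0596 and 0.136). With the oligodendrocyte markers as a covariate Cdh26 did not pass in the Rfx3 line (edgeR adjusted p = 0.0720).

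**Figure D2:**
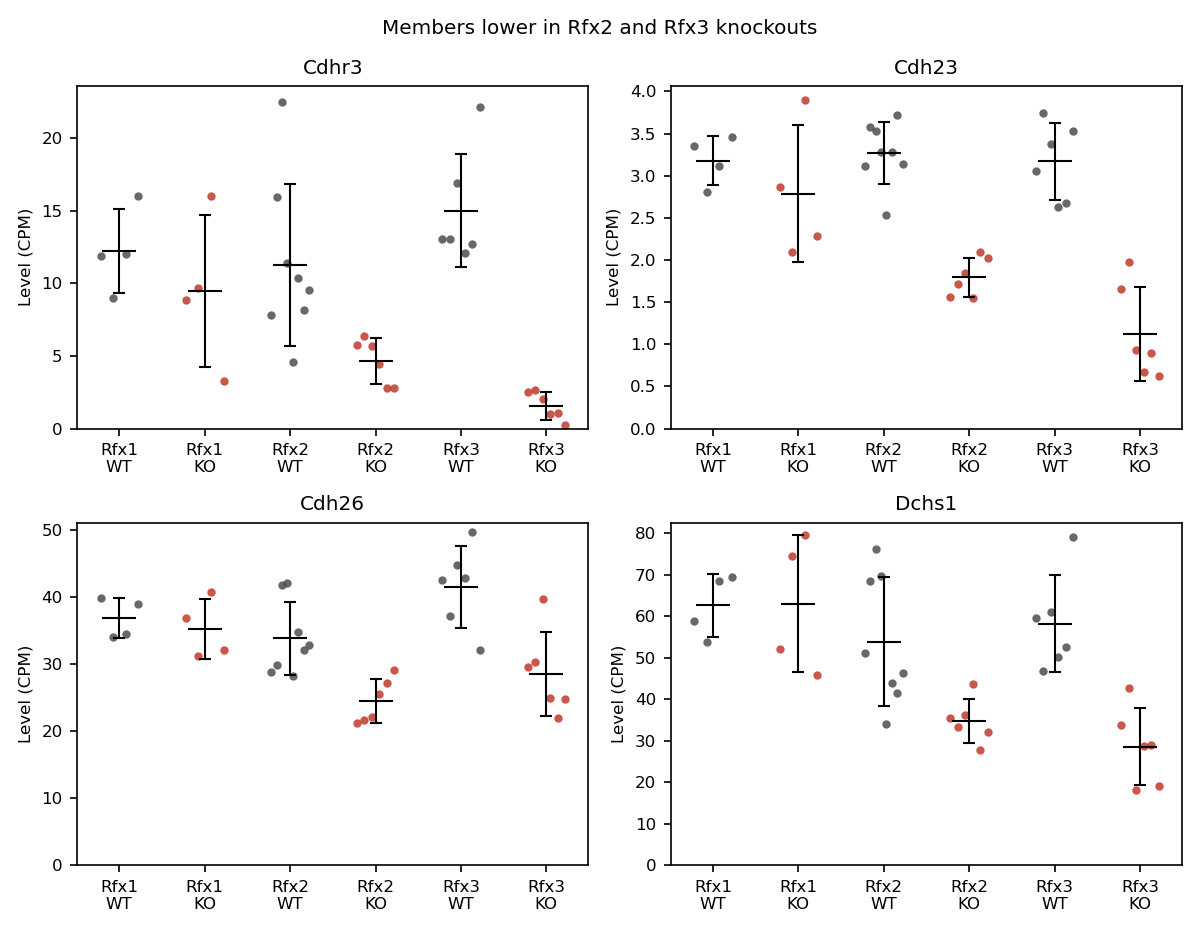
Levels of Cdhr3, Cdh23, Cdh26 and Dchs1 in CPM (vertical axis) in each library of the 6 groups; points are libraries, and black lines with bars are means ± SD. In the Rfx3 line Cdhr3, Cdh23 and Dchs1 separate fully, while Cdh26 overlaps, and in the Rfx1 line all 4 genes overlap.

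The called partners of Cdh23 and Pcdh15 in the Usher protein network moved in the same direction as Cdh23. In Rfx2 knockouts 3 of 6 tested partners fell, against 18.4% of all genes tested, and 0 rose, against 13.9%. The median log2 difference was -0.41. In Rfx3 knockouts 3 of 8 fell, against 12.9%, and 0 rose, against 10.6%, with a median of -0.49. Myo7a, a myosin of stereocilia, fell to 67.7 ± 8.63 CPM (SD, n = 6) from 126 ± 29.5 (n = 8) in the Rfx2 line and to 63.3 ± 23.1 (n = 6) from 122 ± 24.1 (n = 6) in the Rfx3 line. Whrn, the scaffold whirlin, fell by 0.61 and 0.45 on the log2 scale. The other partners that fell were Adgrv1 in Rfx2 knockouts (-0.86) and Ush1g in Rfx3 knockouts (-2.10).

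Of the other partners of Fat and Dachsous cadherins in the Hippo and polarity pathways, 2 of 10 rose and 4 fell in Rfx2 knockouts (median -0.03). Of all genes tested there, 13.9% rose and 18.4% fell. In Rfx3 knockouts 1 of 10 rose and 1 fell (median -0.10), against 10.6% and 12.9% of all genes tested. Fjx1, the four-jointed kinase that modifies Fat and Dachsous repeats, fell by 0.30 in Rfx2 knockouts. Lats2, a Hippo kinase, rose by 0.17 there. In Rfx3 knockouts Lix1l rose by 0.35 and Wwtr1 (Taz) fell by 0.18. Fat4 itself rose in Rfx2 knockouts. Its values were 103, 120 and 145 CPM against 70.9, 80.4 and 108 in wild types, where wild type 5 alone reached the knockouts. The log2 difference was 0.57 (SE 0.11, edgeR adjusted p = 0.00110). In Rfx3 knockouts Fat4 differed by -0.01 (SE 0.23), with knockout 3 at 22.3 CPM and the other 5 at 50.3 to 73.6. Fat3 rose by 0.18 (SE 0.05, edgeR adjusted p = 0.0170) in Rfx2 knockouts and differed by -0.26 (SE 0.20) in Rfx3 knockouts, without passing the test. Fat1, the most abundant of these genes, differed by 0.08 (SE 0.11) in Rfx2 knockouts and -0.28 (SE 0.19) in Rfx3 knockouts. Its lowest Rfx3 knockout was at 584 CPM, where the knockout median was 1350. Leaving out each Rfx3-line library in turn gave -0.356 to -0.135 for Fat1 and -0.333 to -0.1 for Fat3, and neither passed. Fat2 was at 0.166 to 1.69 CPM in Rfx2 knockouts against 0.122 to 0.430, and did not pass the test.

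Cdh20, Cdh11, Pcdh19, Pcdh11x, Pcdhb8, Pcdhb10 and Pcdhb13 rose in both lines. They were 31.8% of the members that rose in Rfx2 knockouts and 41.2% of those that rose in Rfx3 knockouts. This was 10.3% of the 68 members tested in both, and 3.25% of all genes tested in both rose in both. No member rose in one of these lines and fell in the other. Summed markers of the oligodendrocyte lineage overlapped between knockouts and wild types in both lines. Their 8 genes gave 110 to 444 CPM in Rfx2 knockouts against 112 to 324 in wild types. In Rfx3 knockouts the sum was 208 to 598 CPM against 123 to 344. Rfx2 knockouts 4 to 6 were at 110 to 122 CPM and Rfx2 wild types 3 to 8 at 112 to 144. Of the 7 markers tested, Olig1 and Olig2 rose in Rfx3 knockouts, and none of the 8 was at 0 throughout a group. Of the 7 astrocyte markers 3 rose and 1 fell in Rfx2 knockouts, and 1 rose in Rfx3 knockouts. Summed, those 7 ran from 5966 to 11202 CPM in Rfx2 knockouts against 4764 to 8581, and from 2435 to 5295 in Rfx3 knockouts against 2330 to 4926, with none at 0. Among other marker lists, 3 of 4 choroid plexus genes fell in Rfx3 knockouts and 1 in Rfx2 knockouts, 1 and 2 of 6 genes of mural cells and fibroblasts rose, and 1 of 8 neuronal genes rose and 1 fell in Rfx3 knockouts. The endothelial marker Tek fell in Rfx2 knockouts (-0.75). No microglial or cell-cycle gene passed in either line. Of all genes tested, 13.9% rose and 18.4% fell in Rfx2 knockouts, and 10.6% rose and 12.9% fell in Rfx3 knockouts. The part of the cell types marked by these genes in the rises was not tested apart from fits with a covariate. With the oligodendrocyte markers as a covariate, 18 of 70 members rose in the Rfx2 line, against 17.4% of all genes in that fit, and 9 of 69 in the Rfx3 line, against 9.57%. The neuronal markers as a covariate gave 11 of 70 in the Rfx2 line, against 11% of all genes. In the Rfx3 line they gave 15 of 69, against 8.24%. In an alternative chosen after seeing the data, which left out the 5 Rfx2-line libraries with Pdgfra above 50 CPM, 14 of 68 rose, against 13.3% of all genes, and 13 of these were among the 22.

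Pcdh19, an X-linked delta protocadherin, separated the Rfx2 groups. Values were 11.4, 13.3 and 14.2 CPM in Rfx2 knockouts and 5.19, 6.78 and 9.96 in wild types. The log2 difference was 0.92 (SE 0.11, edgeR adjusted p = 7.03e-05), and the call held in every alternative run for this line. In Rfx3 knockouts it had 5.45, 8.50 and 10.5 CPM against 4.42, 5.33 and 6.55, with overlap (log2 difference 0.59, SE 0.16, edgeR adjusted p = 0.0204). Without Rfx3 wild type 3 the adjusted p was 0.0501. Pcdh11x, also X-linked, had 1.21, 2.22 and 3.38 CPM in Rfx2 knockouts against 0.484, 0.785 and 1.88 (log2 difference 1.22, SE 0.36, edgeR adjusted p = 0.0186). In the Rfx3 line it had 0.773, 2.08 and 3.39 against 0.398, 0.646 and 1.69 (log2 difference 1.41, SE 0.41, edgeR adjusted p = 0.0259). Its highest wild types, at 1.88 and 1.77 CPM (Rfx2 wild types 1 and 2) and 1.69 CPM (Rfx3 wild type 6), were the 3 wild-type libraries with Pdgfra above 50 CPM. With the oligodendrocyte markers as a covariate, the edgeR adjusted p in the Rfx3 line was 0.0886 for Pcdh19 and 0.0999 for Pcdh11x. With Y-linked expression as a covariate, the edgeR adjusted p in the Rfx3 line was 0.0646 for Pcdh19 and 0.0569 for Pcdh11x. The Pcdh11x call there was lost without any of 6 libraries (knockouts 4 and 5, wild types 1, 2, 3 and 5), with an adjusted p of at most 0.0626.

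Cdh20, a type II cadherin of neural progenitors, separated the Rfx3 groups. It had 7.19, 8.58 and 9.14 CPM in Rfx3 knockouts and 3.93, 4.86 and 5.50 in wild types (log2 difference 0.80, SE 0.11, edgeR adjusted p = 0.000986). In the Rfx2 line it had 5.15, 6.33 and 7.99 CPM against 2.92, 3.74 and 6.39, with overlap (log2 difference 0.66, SE 0.17, edgeR adjusted p = 0.00730). Cdh11, a type II cadherin of mesenchyme and glia, was the most abundant of the 7, in CPM and per kilobase of exon. It had 81.2, 92.6 and 97.1 CPM in Rfx2 knockouts against 45.3, 61.1 and 86.0, with wild type 1 alone inside the knockout range (log2 difference 0.56, SE 0.11, edgeR adjusted p = 0.00124). In Rfx3 knockouts it had 80.0, 84.6 and 98.5 CPM against 53.2, 65.1 and 83.7 (log2 difference 0.36, SE 0.11, edgeR adjusted p = 0.0305). That second call was lost on leaving out any of 7 libraries (knockouts 4, 5 and 6, wild types 1, 2, 3 and 6), with an adjusted p of at most 0.0740.

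**Figure D3:**
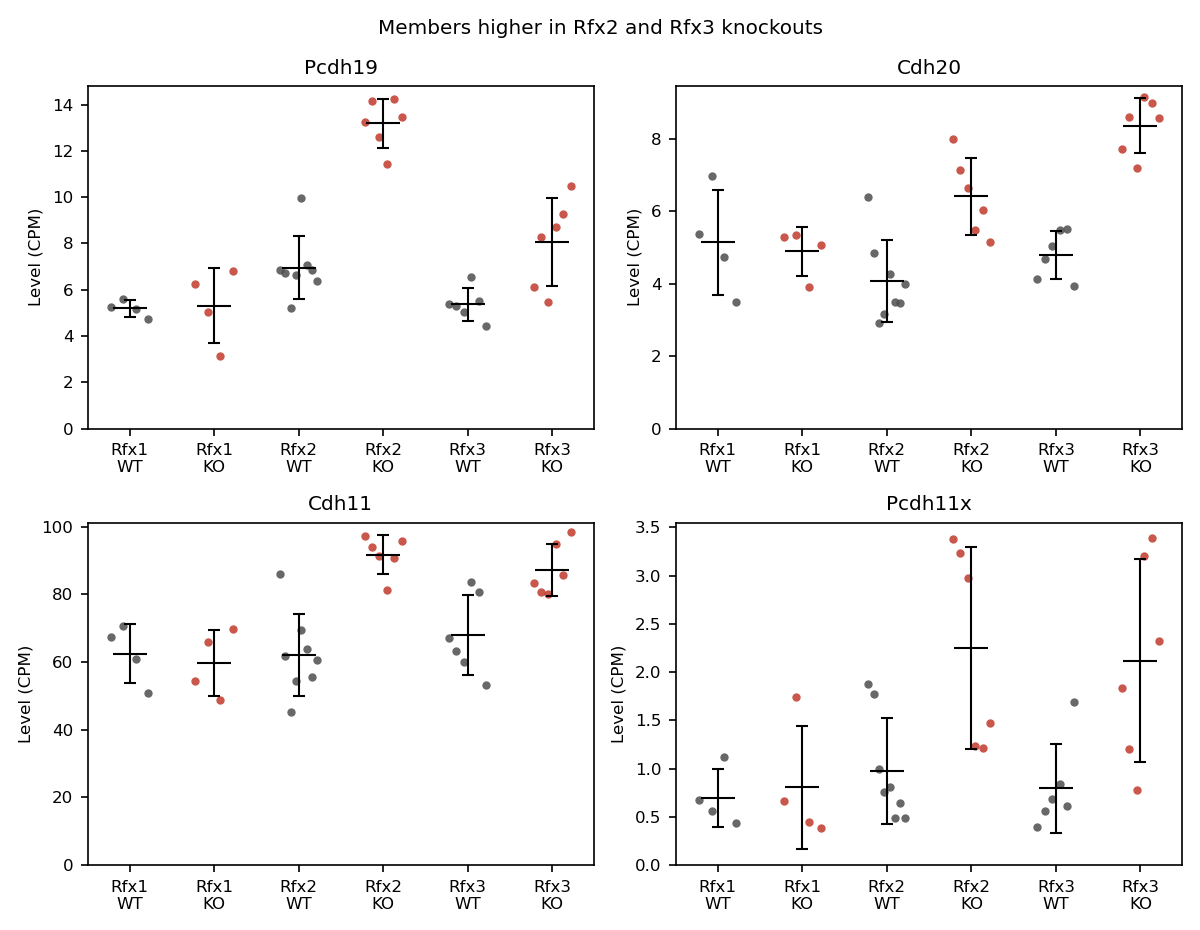
Levels of Pcdh19, Cdh20, Cdh11 and Pcdh11x in CPM (vertical axis) in each library of the 6 groups; points are libraries, and black lines with bars are means ± SD. Pcdh19 separates the Rfx2 groups and Cdh20 the Rfx3 groups, while the Rfx1 groups overlap for all 4 genes.

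Among type I classical cadherins, the pair of abundant genes moved in opposite directions in Rfx2 knockouts. Cdh2 rose to 661, 686 and 836 CPM from 507, 580 and 698, with overlap (log2 difference 0.28, SE 0.07, edgeR adjusted p = 0.00624). Cdh4 (R-cadherin) fell to 53.5, 57.0 and 64.8 CPM from 62.3, 79.5 and 91.2 (log2 difference -0.41, SE 0.08, edgeR adjusted p = 0.00174). In Rfx3 knockouts neither passed the test, with log2 differences of 0.15 (SE 0.14) for Cdh2 and -0.02 (SE 0.14) for Cdh4. Without Rfx3 knockout 3, where Cdh2 was lowest at 401 CPM, Cdh2 rose by 0.25 (edgeR adjusted p = 0.0289). Its difference ran from 0.063 to 0.253 across the alternatives for that line. Cdh1 rose in Rfx2 knockouts by 1.18 (SE 0.41, edgeR adjusted p = 0.0408) at 0.172 to 1.14 CPM against 0.0961 to 0.459, only 4 of 6 knockouts being above the wild-type mean. That call was lost without any of 8 libraries (knockouts 2, 3 and 5, wild types 3, 4, 6, 7 and 8), with an adjusted p of at most 0.109. Cdh5 was not tested. It reached 2.79 CPM in Rfx2 knockout 5 and lay between 0 and 1.37 CPM in the other 5, against 0.0320 to 0.447 in wild types. Of the endothelial markers, Cldn5 and Emcn were at 0 in all 6 Rfx2 knockouts, and Emcn also in all 8 wild types. Of those tested, Kdr had a mean of 40.7 CPM in knockouts and 33.2 in wild types, Flt1 3.43 and 3.44, and Tek 0.309 and 0.522. Summed, the 6 endothelial markers gave 28.5 to 68.5 CPM in Rfx2 knockouts and 29.2 to 52.8 in wild types.

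Type II cadherins mostly rose in the Rfx2 line. In Rfx2 knockouts 5 of 9 tested rose, against 13.9% of all genes tested, and 0 fell, against 18.4% (median 0.56). In Rfx3 knockouts 3 of 9 rose, against 10.6%, and 0 fell, against 12.9% (median 0.78). Cdh6 had 9.55, 11.9 and 12.9 CPM in Rfx2 knockouts against 7.25, 7.84 and 9.05, with no overlap (log2 difference 0.52, SE 0.08, edgeR adjusted p = 0.000392). Cdh24 rose by 0.35 and Cdh18 by 1.05 in that line. Cdh10, a cadherin of brain circuits, rose in Rfx3 knockouts to 2.05, 4.04 and 5.21 CPM from 1.03, 1.13 and 2.65 (log2 difference 1.36, SE 0.30, edgeR adjusted p = 0.00828). Its highest wild-type value was again Rfx3 wild type 6. In Rfx2 knockouts the Cdh10 difference was 0.61 (SE 0.28, edgeR adjusted p = 0.108), and with the replicate number as a block 0.53 (edgeR adjusted p = 0.0465). Cdh8, Cdh19 and Cdh22 passed the test in neither line.

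Cdh13 (T-cadherin), which is held by a lipid anchor and lacks a cytoplasmic tail, rose in Rfx2 knockouts. Values were 30.5, 47.7 and 66.8 CPM against 15.6, 17.6 and 42.7 (log2 difference 1.09, SE 0.26, edgeR adjusted p = 0.00545). The overlap came from wild types 1 and 2, at 42.7 and 32.6 CPM, which also had Pdgfra above 50 CPM. In Rfx3 knockouts the difference was 0.34 (SE 0.19), not past the test. Without Rfx3 wild type 4 it was 0.51 (edgeR adjusted p = 0.0493). Cdh17, a cadherin of intestine, fell by 0.66 (SE 0.17, edgeR adjusted p = 0.00920) in Rfx2 knockouts, at 0.6248 to 1.10 CPM against 0.915 to 1.79, and differed by -0.02 (SE 0.26) in Rfx3 knockouts. Cdhr1, a cadherin of photoreceptors, stayed at or below 1.61 CPM in all libraries of these lines, and its differences of 0.42 (SE 0.43) and 0.997 (SE 0.44) did not pass. Without Rfx3 knockout 3 the second was 1.17 (edgeR adjusted p = 0.0441), and across the alternatives it ran from 0.118 to 1.203.

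Catenins and junction partners split. In Rfx2 knockouts 4 of 15 rose and 3 fell (median 0.07), against 13.9% and 18.4% of all genes tested. In Rfx3 knockouts 3 of 15 rose and 3 fell (median 0.00), against 10.6% and 12.9% of all genes tested. Ctnna3 (alpha-T-catenin) fell to 5.20 ± 0.674 CPM from 13.7 ± 3.68 in the Rfx2 line and to 6.21 ± 2.76 from 14.0 ± 4.08 in the Rfx3 line (log2 differences -1.39 and -1.17). Jup (plakoglobin) fell by 0.23 and 0.43. Nectin2, a junction receptor of the immunoglobulin family, rose by 0.29 and 0.41. Ctnnb1 (beta-catenin) rose in Rfx3 knockouts by 0.18 and Ctnna1 fell there by 0.17. Of other cadherin superfamily genes, Dsc3, a desmosomal cadherin, fell by 1.52 and Celsr1, a polarity cadherin, rose by 0.43 in Rfx2 knockouts, as 1 of 10 each. In Rfx3 knockouts the desmosomal cadherins Dsc1 (-2.26) and Dsg2 (-0.94) fell, as 2 of 11, and 0 rose. The counts in both lists for the Rfx1 line were 0 higher and 0 lower.

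All 9 delta protocadherins had positive differences in both lines, some near 0, such as Pcdh8 at 0.02 (SE 0.23) in Rfx3 knockouts. Over all genes tested, 7588 of 14305 differences were positive in the Rfx2 line and 7726 of 14340 in the Rfx3 line. In Rfx2 knockouts 6 of 9 rose, against 13.9% of all genes tested, and in Rfx3 knockouts 3 of 9, against 10.6%. The medians were 0.53 and 0.41, and 0 fell, against 18.4% and 12.9%. Pcdh9 had 17.8, 19.4 and 22.4 CPM in Rfx2 knockouts and 9.55, 13.4 and 14.8 in wild types, with no overlap (log2 difference 0.63, SE 0.10, edgeR adjusted p = 0.000495). In Rfx3 knockouts it had 5.91, 17.6 and 24.7 CPM against 7.82, 9.77 and 13.1, where knockout 3 held the lowest value (log2 difference 0.75, SE 0.29, edgeR adjusted p = 0.0759). Without that library the Pcdh9 difference was 0.92 (edgeR adjusted p = 0.00699), and across the alternatives it ran from 0.142 to 0.924. Pcdh17, which takes part in synapse assembly, rose in Rfx3 knockouts to 13.7, 28.6 and 37.3 CPM from 12.5, 15.02 and 18.3 (log2 difference 0.82, SE 0.21, edgeR adjusted p = 0.0144). In Rfx2 knockouts the Pcdh17 difference was 0.48 (edgeR adjusted p = 0.117), and with the replicate number as a block it was 0.41 (edgeR adjusted p = 0.0453). Its adjusted p was 0.0337 without Rfx2 knockout 4 and 0.0394 without Rfx2 wild type 1.

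Pcdh18 had 7.51 to 9.67 CPM in Rfx2 knockouts and 4.98 to 7.34 in wild types, with no overlap (log2 difference 0.53, SE 0.09, edgeR adjusted p = 0.000681). Pcdh8 rose by 0.85 (SE 0.27, edgeR adjusted p = 0.0238) in that line, with 5 of 6 knockouts above the wild-type mean. Without Rfx2 knockout 2 or 3 the Pcdh8 call was lost, with an adjusted p of at most 0.0631. Pcdh1 rose by 0.31 (SE 0.11, edgeR adjusted p = 0.0485), a call lost on leaving out any of 9 of the 14 libraries (knockouts 1, 2, 3 and 5, wild types 1, 2, 3, 4 and 7), with an adjusted p of at most 0.0926. In Rfx3 knockouts Pcdh1 did not pass (0.41, SE 0.19) and without knockout 3 it did (0.51, edgeR adjusted p = 0.0363). Its difference ran from -0.025 to 0.523 across the alternatives. The abundant members Pcdh10 and Pcdh7 differed by 0.02 (SE 0.06) and 0.03 (SE 0.06) in Rfx2 knockouts. The alternatives gave -0.043 to 0.048 for Pcdh10 and -0.049 to 0.109 for Pcdh7, so neither sign was stable. In Rfx3 knockouts Pcdh10 differed by 0.12 (SE 0.12), and without knockout 3 by 0.22 (edgeR adjusted p = 0.0139). Across the alternatives that difference ran from -0.064 to 0.221.

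With the oligodendrocyte markers as a covariate 4 of 9 delta protocadherins rose in the Rfx2 line, against 17.4% of all genes in that fit. In the Rfx3 line 0 of 9 did, against 9.57%, and Pcdh17 had an edgeR adjusted p of 0.149. Pcdh15, the tip-link partner of Cdh23, followed those markers from library to library. Its level was 6.15 to 17.6 CPM (median 11.9) in the 8 libraries with Pdgfra above 50 CPM and 0 to 4.90 CPM (median 0.121) in the other 26. Rfx3 knockouts 1 to 6 had 4.90, 0.344, 0.271, 12.3, 17.6 and 3.66 CPM, and wild types 1 to 6 had 0.0918, 0.121, 0.137, 0.112, 0.0357 and 13.4. Wild type 6 alone among the wild types was high. The log2 difference was 1.49 (SE 1.33, edgeR adjusted p = 0.449), and 5.95 without Rfx3 wild type 6 (edgeR adjusted p = 0.00759). In the Rfx2 line it was 1.28 (SE 1.27, edgeR adjusted p = 0.469), and -1.45 with the oligodendrocyte markers as a covariate (edgeR adjusted p = 0.00307). In the Rfx3 line that covariate gave -0.23 (edgeR adjusted p = 0.663). Thus the sign of the Pcdh15 difference depended on that setting in both lines.

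The protocadherin clusters hold 39 of the 75 members, and Cdh2 and Pcdh1 lie on the same chromosome, 18. Members of a cluster share sequence and, in the alpha and gamma clusters, exons, and how shared reads were assigned is not given in the sources used here, so values of single genes are uncertain. Of the clusters, beta had the highest median difference in the Rfx2 and Rfx3 lines. In Rfx3 knockouts 11 of 21 tested beta genes rose, against 10.6% of all genes tested, and 0 fell, against 12.9%. All 21 differences were positive, as were 7726 of 14340 over all genes, and the median was 0.55. In Rfx2 knockouts 5 of 21 rose, against 13.9%, and 0 fell, against 18.4%. There 19 differences were positive, as were 7588 of 14305 over all genes, and the median was 0.34. Genes that share sequence are not separate observations. The summed beta cluster was 74.5 to 111 CPM in Rfx3 knockouts against 58.5 to 77.3 in wild types, with only knockout 3 inside the wild-type range. In the Rfx2 line it was 80.6 to 101 CPM against 60.1 to 94.7, with overlap.

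Pcdhb18 had 7.61, 10.997 and 13.1 CPM in Rfx3 knockouts and 5.41, 5.90 and 7.23 in wild types, with no overlap (log2 difference 0.82, SE 0.14, edgeR adjusted p = 0.00271). Pcdhb20 had 6.29, 8.46 and 9.20 CPM against 3.89, 4.45 and 6.21 (log2 difference 0.76, SE 0.15, edgeR adjusted p = 0.00493). Pcdhb22, the most abundant beta gene, had 20.7, 23.2 and 25.5 CPM against 14.6, 15.7 and 20.5 (log2 difference 0.47, SE 0.10, edgeR adjusted p = 0.00596). Groups did not overlap for these 3 genes or for Pcdhb4, Pcdhb7, Pcdhb8, Pcdhb14 and Pcdhb17. How often this holds among all genes is not given here, so it does not set the beta cluster apart. Pcdhb17 differed by 0.67, Pcdhb7 by 0.65, Pcdhb4 by 0.60, Pcdhb19 by 0.59, Pcdhb14 by 0.53 and Pcdhb8 by 0.52. Pcdhb10 (0.84) and Pcdhb13 (0.55) were nearer the threshold, and their calls depended on single libraries. The Pcdhb10 call was lost without any of 9 of the 12 libraries (all but knockouts 1 and 3 and wild type 6), and the Pcdhb13 call without any of 10 (all but knockout 3 and wild type 6), with adjusted p up to 0.0954 and 0.110. The Pcdhb8 call was lost without Rfx3 knockout 4 or wild type 1, 2 or 3 (adjusted p up to 0.0641). Without Rfx3 knockout 3, 18 of 21 beta genes rose, against 18.7% of all genes in that fit. With the oligodendrocyte markers as a covariate 7 did, against 9.57%.

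In Rfx2 knockouts the 5 beta genes that rose were Pcdhb5 (0.34), Pcdhb8 (0.47), Pcdhb10 (0.87), Pcdhb12 (0.80) and Pcdhb13 (0.67), of which Pcdhb5 alone had groups apart, at 3.05 to 3.75 CPM against 2.01 to 2.98. These calls were not firm. With the replicate number as a block the edgeR adjusted p was 0.0569 for Pcdhb5, 0.0503 for Pcdhb8, 0.0791 for Pcdhb12 and 0.0546 for Pcdhb13, while Pcdhb10 stayed called and Pcdhb3, Pcdhb19 and Pcdhb20 joined it. The Pcdhb8 call was lost without any of 6 libraries (knockouts 3, 5 and 6, wild types 3, 4 and 8), Pcdhb10 without knockout 1 or 3 and Pcdhb12 without knockout 1 or 2, with adjusted p up to 0.0630, 0.0577 and 0.0697. Without the 5 libraries with Pdgfra above 50 CPM, 0 of 21 beta genes rose, against 13.3% of all genes, and the median was 0.26. Pcdhb1, the first gene of the cluster, was not tested. Its level was 0 to 0.236 CPM in Rfx3 knockouts against 0.184 to 0.535 in wild types, and 0.0298 to 0.232 in Rfx2 knockouts against 0.103 to 0.394.

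**Figure D4:**
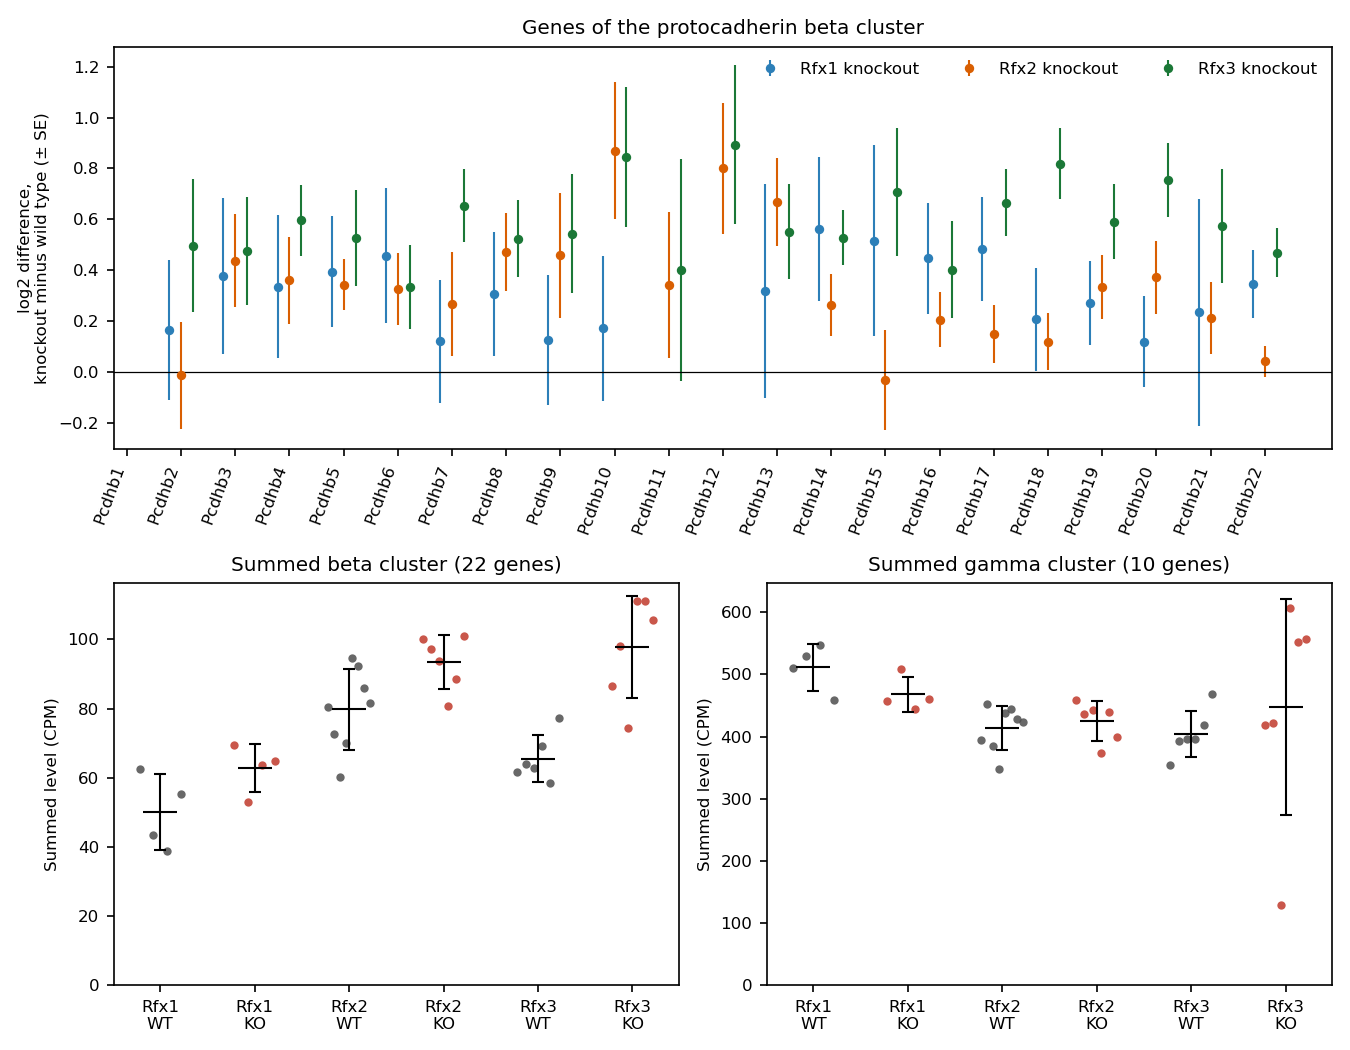
Top, log2 difference ± SE of each tested beta-cluster gene in the Rfx1, Rfx2 and Rfx3 lines, in the order of their numbers (a gene with no point was not tested). Bottom, summed CPM of the 22 beta and 10 gamma genes in each library with mean ± SD; Rfx3 knockout 3 has the lowest gamma sum, 129 CPM.

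The gamma cluster was led by Pcdhgc3, a widely expressed C-type gene, and its members split by direction. In Rfx2 knockouts Pcdhgc3 rose to 228, 276 and 295 CPM from 182, 239 and 261 (log2 difference 0.23, SE 0.08, edgeR adjusted p = 0.0461), a call lost without any of 7 libraries (knockouts 1, 2, 3 and 5, wild types 3, 4 and 8; adjusted p up to 0.0828). Its C-type neighbours Pcdhgc4 and Pcdhgc5 fell. Pcdhgc5 had 29.2, 38.2 and 40.6 CPM against 43.5, 52.2 and 62.8, with no overlap (log2 difference -0.52, SE 0.09, edgeR adjusted p = 0.000851). Pcdhgc4 had 19.1, 20.5 and 23.5 CPM against 22.9, 35.0 and 45.0 (log2 difference -0.68, SE 0.13, edgeR adjusted p = 0.00111). Pcdhgb6 fell by 0.23 (SE 0.08, edgeR adjusted p = 0.0321), and by a value that did not pass with the replicate number as a block (edgeR adjusted p = 0.167). Without any of 8 libraries (knockouts 1, 2 and 3, wild types 2, 3, 6, 7 and 8) the Pcdhgb6 call was also lost, with an adjusted p of at most 0.0757.

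In Rfx3 knockouts 0 of 10 gamma genes passed. Pcdhgc3 was at 247, 259, 81.3, 425, 387 and 396 CPM in knockouts 1 to 6 and at 190 to 253 in wild types, so that knockouts 4, 5 and 6 lay above every wild type and knockout 3 below. Its log2 difference was 0.43 (SE 0.29), and 0.62 (edgeR adjusted p = 0.00828) without knockout 3. Without that library Pcdhga8 and Pcdhga11 also rose, and Pcdhgb6 (-0.45) and Pcdhgc4 (-0.40) fell. The summed gamma cluster was 129 CPM in knockout 3 and 419 to 608 in the other 5 knockouts, against 354 to 468 in wild types. In the alpha cluster 0 of 5 tested genes passed in either line. Summed over 7 genes it was 6.23 to 10.5 CPM in Rfx2 knockouts against 6.60 to 10.04, and 1.78 to 10.8 in Rfx3 knockouts against 7.07 to 11.1, where the lowest value was again knockout 3. Pcdhac2 alone of them passed without knockout 3 (0.63, edgeR adjusted p = 0.00410).

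The list of cluster regulators held the insulator protein Ctcf, cohesin and silencing enzymes. In Rfx2 knockouts 0 of 11 fell, against 18.4% of all genes tested, and 5 rose, against 13.9% (median 0.08). They were Rad21 (0.16), Smc3 (0.14), Ctcf (0.10), Smc1a (0.08) and Dnmt3b (0.32). In Rfx3 knockouts 0 rose and 1 fell (median -0.15), against 10.6% and 12.9% of all genes tested. It was the histone methyltransferase Setdb1, which fell by 0.28 (SE 0.08, edgeR adjusted p = 0.0319).

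In Rfx1 knockouts no member passed the test in edgeR, DESeq2 or limma-voom, and 4 of 62 (6.45%) had an unadjusted p under 0.05, against 2.03% of all genes tested. These 4 were Pcdhac2, Pcdha12, Pcdhb17 and Pcdhb22. Pcdhac2 had 4.24, 3.94, 3.68 and 3.77 CPM in knockouts 1 to 4 and 5.08, 5.76, 5.48 and 4.90 in wild types, with no overlap (log2 difference -0.44, SE 0.13, edgeR adjusted p = 0.9998). All 19 tested beta genes had positive differences, from 0.12 to 0.56 with a median of 0.32, and 0 passed. Over all genes tested in that line 7093 of 13830 differences were positive. The summed beta cluster was 69.4, 52.999, 63.6 and 64.9 CPM in Rfx1 knockouts and 62.6, 43.4, 38.7 and 55.4 in wild types, with overlap. Cdhr3 had 8.82, 9.68, 16.04 and 3.29 CPM in knockouts 1 to 4 against 9.02 to 15.99 in wild types (log2 difference -0.37, SE 0.38). Cdh23 differed by -0.19 (SE 0.21), Dchs1 by 0.01 (SE 0.17), Pcdh19 by 0.04 (SE 0.23), Cdh2 by -0.03 (SE 0.11) and Fat1 by 0.08 (SE 0.15).

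The Rfx2 and Rfx3 effects were compared directly in a fit of all 34 libraries, in which 3 of 75 members differed. For 1 member (1.33%) the Rfx2 effect was higher, against 2.10% of all genes, and for 2 (2.67%) it was lower, against 1.74%. Cdhr3 fell less in Rfx2 than in Rfx3 knockouts, by 2.004 on the log2 scale (SE 0.51, edgeR adjusted p = 0.0200). With the replicate number as a block the Cdhr3 difference was 2.06 (edgeR adjusted p = 0.0600). Pcdhb18 and Pcdhb22 rose in Rfx3 knockouts more than in Rfx2 knockouts. Their Rfx2 effects were 0.12 and 0.04, their Rfx3 effects 0.82 and 0.47, and the differences -0.69 (SE 0.19, edgeR adjusted p = 0.0337) and -0.42 (SE 0.12, edgeR adjusted p = 0.0459). The block gave an adjusted p of 0.0478 for Pcdhb18 and 0.105 for Pcdhb22. The Cdhr3 call held on leaving out each library in turn. The Pcdhb18 call was lost without Rfx2 wild type 8 or Rfx3 wild type 2, 3 or 5 (adjusted p up to 0.0647). The Pcdhb22 call was lost without Rfx2 wild type 4 or 8, Rfx3 knockout 6 or Rfx3 wild type 1, 3, 4 or 5 (adjusted p up to 0.0842). For other members called in 1 line and not in the other, such as Cdh13, Pcdh9 or Cdh10, a difference between the lines did not pass. Cdh18 came next, with effects of 1.05 and -0.57 (difference 1.63, SE 0.59, edgeR adjusted p = 0.121).

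**Figure D5:**
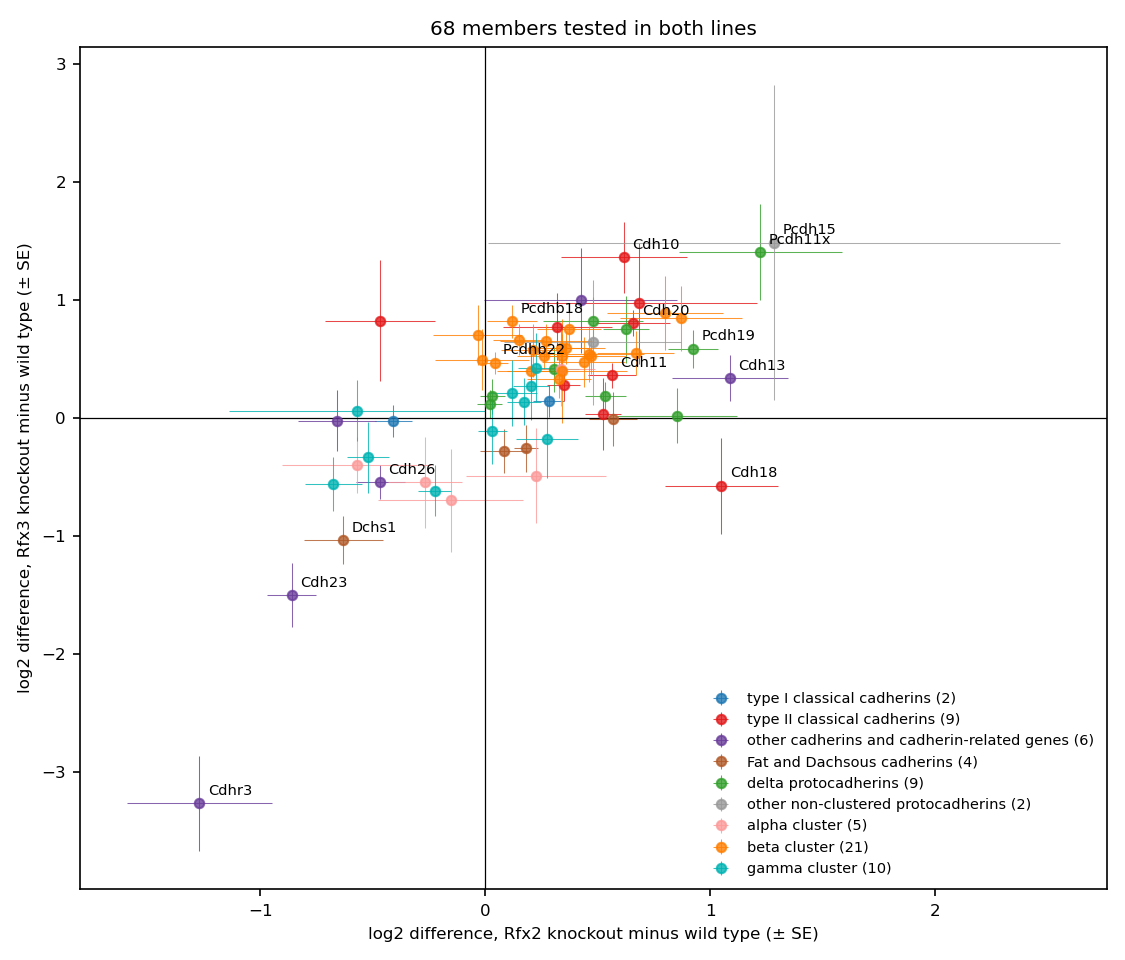
Log2 difference between knockout and wild type in the Rfx2 line (horizontal) and the Rfx3 line (vertical) for the 68 members tested in both, coloured by class, with bars of ± 1 SE. Cdhr3, Cdh23, Dchs1 and Cdh26 lie at the lower left, beta-cluster genes lie above 0 on the vertical axis, and Pcdh15 has the widest bars.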

How the data were processed

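Gene-level RNA-seq read counts were used as the authors deposited them, one column per library, for 34 libraries. Per the submitters' processing notes, CASAVA 1.8.2, STAR 2.4, featureCounts 1.4.6 and the build GRCm38 were used. The annotation, the settings and how strand was handled were not given in the sources used here. Reads shared by clustered protocadherins, or by genes that overlap, may therefore have been divided or dropped. Of the 21647 gene identifiers, 21583 matched GENCODE M21, and the others held at most 0.0417% of counts. Libraries held 18.2 to 53.4 M counts. All 85 replicate pairs differed by more than sampling noise (chi-squared per degree of freedom at least 4.11), so none was counted as a duplicate.

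Groups came from the genotype labels. A separate edgeR 4.0.16 model (R 4.3.3) was fitted for each line: genes kept by filterByExpr (minimum count 10, minimum total 15), TMM scaling, the quasi-likelihood test and Benjamini-Hochberg adjustment over all genes tested. The Rfx2 and Rfx3 effects were compared in 1 fit of all groups. CPM values use TMM-scaled library sizes, fold changes the default prior count of edgeR, and RPKM the summed exon length in GENCODE M21. Log2 CPM for the marker covariates used a prior count of 2. The steps were tested on simulated data. Alternatives were DESeq2 1.42.0, limma 3.58.1 with voom, other scaling and filters, covariates, a replicate block, and leaving out each library in turn. Members and lists were chosen with earlier results of these data known. Genes named per line were the 8 largest increases and decreases among called members with a mean of at least 1 CPM and all knockouts shifted the same way from their controls' mean, a list of members always described, all members that differed between lines, and up to 2 called genes per pathway list. Others named were chosen after their values were seen. The result of 1 marker gene is not reported here.

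No label says that equal replicate numbers mark shared litters or batches. In the Rfx2 line, same-numbered knockouts and wild types deviated together in 6 of 6 pairs (correlation across genes 0.15 to 0.62), so the blocked fit is given beside results there that it changes.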

Additional observations from a re-analysis of the deposited data

Results flagged for a closer look

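Across 176 groups of values examined (a member in 1 group of libraries), 8 had a library far from the others of its group, where chance alone gives about 1 in 20. Fat1 was at 1592 CPM in Rfx1 knockout 4, and at 1159 to 1227 in the other Rfx1 knockouts. Cdh18 was at 1.33 CPM in Rfx2 knockout 6 (others 0.458 to 0.729) and at 0.639 CPM in Rfx2 wild type 4 (others 0.262 to 0.412). Rfx2 wild type 5 had the highest wild-type level of Pcdh19, 9.96 CPM (others 5.19 to 7.08), and of Pcdhb8, 2.45 CPM (others 1.38 to 1.804). Rfx3 wild type 6 had 1.69 CPM of Pcdh11x (others 0.398 to 0.837) and 13.4 CPM of Pcdh15 (others 0.0357 to 0.137), and its Pdgfra level was 103 CPM against 2.02 to 4.04 in the other Rfx3 wild types. Pcdhb14 was lowest in Rfx3 wild type 5, at 3.68 CPM (others 4.51 to 4.98).

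The knockout effects of 3 members differed between the Rfx2 and Rfx3 lines in a test of the difference itself. The Rfx2 effect minus the Rfx3 effect was 2.004 for Cdhr3, -0.69 for Pcdhb18 and -0.42 for Pcdhb22, on the log2 scale.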

How the results depend on the processing

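Among 91 named results and 2143 alternative values of them, 1859 kept their direction and their side of the threshold, 204 were no longer called, 15 became called, 64 changed sign with neither value called and 1 reversed. Of 55 called results, 15 were called in every alternative run, among them Cdhr3, Cdh23, Dchs1 and Cdh20 in the Rfx3 line and Cdh23, Pcdh19, Cdh2 and Fat4 in the Rfx2 line. The reversal was Pcdh15 in Rfx2 knockouts, -1.45 with the oligodendrocyte markers as a covariate. The number of members that rose in Rfx2 knockouts, 22, became 11 of 70 with neuronal markers as a covariate (11% of all genes rose in that fit), 6 of 69 with replicates 1 to 3 only (2.64%), 12 of 69 with replicates 4 to 8 only (12.5%), and 14 of 68 without the libraries with Pdgfra above 50 CPM (13.3%), an alternative chosen after seeing the data. With replicates 1 to 3 only, 4 members fell, against 4.69% of all genes. In Rfx3 knockouts 9 of 69 rose with the oligodendrocyte covariate (9.57% of all genes). In a fit of all groups 23 of 75 rose and 7 fell in that line (18.3% and 17.8% of all genes). Leaving out each library in turn gave 16 to 29 higher and 8 to 9 lower members in the Rfx2 line, 11 to 35 and 4 to 6 in the Rfx3 line, 0 in the Rfx1 line, and 1 to 4 that differed between lines. The cause of these shifts was not tested.

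With the replicate block, 23 members rose and 8 fell in the Rfx2 line, 12 and 4 in the Rfx3 line, 0 in the Rfx1 line, and 1 differed between lines. What equal numbers mean is not settled in any line. The same-number correlation exceeded 0.1 in 3 of 4 Rfx1 pairs (highest 0.54), 6 of 6 Rfx2 pairs and 1 of 6 Rfx3 pairs. The knockouts that correlated best with their own number were 1 in the Rfx1 line, 3 in the Rfx2 line and 1 in the Rfx3 line. Without a low-count filter 21 and 15 members rose. Members under 1 CPM, such as Cdh1, Cdh5 and Fat2, are limited by depth.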
